A study of Cucumis sativus and Manihot esculenta and Brachypodium distachyon with 34 samples.

Results

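The leaf transcriptome of *Brassica rapa* is described here along its chromosomes, from every gene listed in the deposited expression table, 40492 of the 93689 genes listed for the 3 species whose leaf RNA-seq was used here. Genes were placed by their identifiers, in which a letter stands for the chromosome and the number after it for the order along that chromosome. Brara.D00899, for example, is gene 899 of chromosome D. The study compared leaf DNA methylation across flowering plants and sequenced leaf RNA of some of them. For *B. rapa* it used accession FPsc, with no treatment named in the labels, and 1 RNA-seq library made from total RNA with a kit that keeps the strand. The labels give neither the age of the plants nor whether leaves of several plants were pooled. With 1 library there is no replicate error and no test. All values below describe this library, and genes, windows and chromosomes are not replicates.

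*B. rapa*, the species of turnip and Chinese cabbage, belongs to the Brassicaceae, the family of *A. thaliana*. Its genome descends from an ancient triplication of an *A. thaliana*-like genome, after which many of the extra gene copies were lost and the remaining blocks were reshuffled, so that each chromosome is a mosaic of old segments. In leaves, a few abundant nuclear transcripts of photosynthesis commonly make up much of the mRNA. Neighbouring plant genes can be alike in expression because they are tandem copies of each other, share a promoter region, or lie in the same chromatin. Genes that carry non-CG methylation are commonly silent. The files give identifiers without gene names, so the function of the genes named below is not given and the leaf label could not be checked against marker genes.

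Expression is in FPKM, fragments per kilobase of transcript, scaled to the number of mapped fragments, which allows levels of genes of different length to be compared within the library. Of the 40492 genes, 11962 (29.5%) were listed at 0, which can stand for no reads or for a failed estimate and is called silent here only as a short name. A further 10045 genes (24.8%) were above 0 and below 1 FPKM. At least 1 FPKM was reached by 18485 genes (45.7%). Most of the listed genes thus lay below 1 FPKM, and the median over all genes was 0.655 FPKM, or 2.59 FPKM over the 28530 genes above 0. Between 1 and 10 FPKM lay 10374 genes, between 10 and 100 FPKM 6583 genes, between 100 and 1000 FPKM 1379 genes, and at 1000 FPKM or more 149 genes. The lowest value above 0 was 0.00413 FPKM. In a leaf, which holds several cell types, fewer cells that use a gene and less RNA per cell cannot be told apart.

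The sum of all FPKM was held by few genes. The 149 genes at 1000 FPKM or more, 0.368% of the genes, held 51.1% of the sum. The highest 10 genes held 16.6% and the highest 100 genes 46%. The highest 137 genes were enough to reach 50%. At the other end, the genes above 0 and below 1 FPKM together held 0.283% of it.

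Genes at the top of the range came from every chromosome. The highest value of the library was 66422 FPKM, for Brara.D00899, which alone held 5.44% of the sum. It was followed by Brara.D00895 at 25951 FPKM, Brara.I02856 at 19357 FPKM, Brara.D00896 at 17351 FPKM and Brara.H01921 at 16450 FPKM. Of the first 5, 3 thus lay within 5 consecutive genes of chromosome D. The next were Brara.D01185 at 13864 FPKM, Brara.D02090 at 11883 FPKM, Brara.B02348 at 10762 FPKM, Brara.J00907 at 10343 FPKM and Brara.F01756 at 10175 FPKM. The highest gene of each remaining chromosome was of the same order: Brara.A02793 reached 8678 FPKM, Brara.C03812 8823 FPKM, Brara.E00981 7570 FPKM and Brara.G02097 10100 FPKM. On the letter K it was Brara.K01727, with 6909 FPKM. Of the highest 100 genes, 19 lay on I, which held 13.9% of all genes, 12 on C (11.6%) and 11 on G (9.27%). D, E and H had 10 each, with 7.07%, 9.06% and 7.73% of all genes. F had 8 (9.70%), B 7 (9.89%), J 5 (7.26%), A 4 (9.76%) and K 4 (4.73%). The counts thus only loosely followed the number of genes. By the difference between count and share, I was the furthest above and A the furthest below. In proportion to its share, D was further above than I.

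Most of the highest genes stood alone, and a few were paired. Brara.D01185, at 13864 FPKM, had a gene listed at 0 before it and one at 0.0580 FPKM after it. Brara.J00907 stood between genes at 0.285 and 0.103 FPKM, and Brara.K01727 between genes both listed at 0. Over the 200 neighbours of the highest 100 genes, the median was 0.575 FPKM, against 0.655 FPKM over all genes. Of these neighbours 27.5% were listed at 0, close to the 29.5% over all genes, and 14% were in the top 10% of FPKM, which began at 30.3 FPKM and held 4050 genes (10% of all). The members of the 6 pairs named below are themselves counted among these neighbours, which raises the 14%. No surplus of high genes among the other neighbours is therefore read from it. The highest 100 genes themselves lay side by side more often than their share of all genes. Of them, 6% were directly followed by another of the highest 100, which are 0.247% of all genes. The 6 pairs were Brara.D00895 and Brara.D00896, Brara.I02856 and Brara.I02857 (6741 FPKM), Brara.E00981 and Brara.E00982 (3459 FPKM), Brara.F00205 and Brara.F00206 (6090 and 1755 FPKM), Brara.C03031 and Brara.C03032 (3286 and 4439 FPKM), and Brara.G03383 and Brara.G03384 (3246 and 8451 FPKM). Whether the members of a pair are copies of each other was not analysed here.

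The cluster on chromosome D was not an unbroken block. Brara.D00894 was at 7.85 FPKM, Brara.D00895 and Brara.D00896 at 25951 and 17351 FPKM, Brara.D00897 at 0.458 FPKM, Brara.D00898 at 137 FPKM, Brara.D00899 at 66422 FPKM, and Brara.D00900 was listed at 0. Values that differed by several orders of magnitude thus followed each other within 7 genes.

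**Figure D1:**
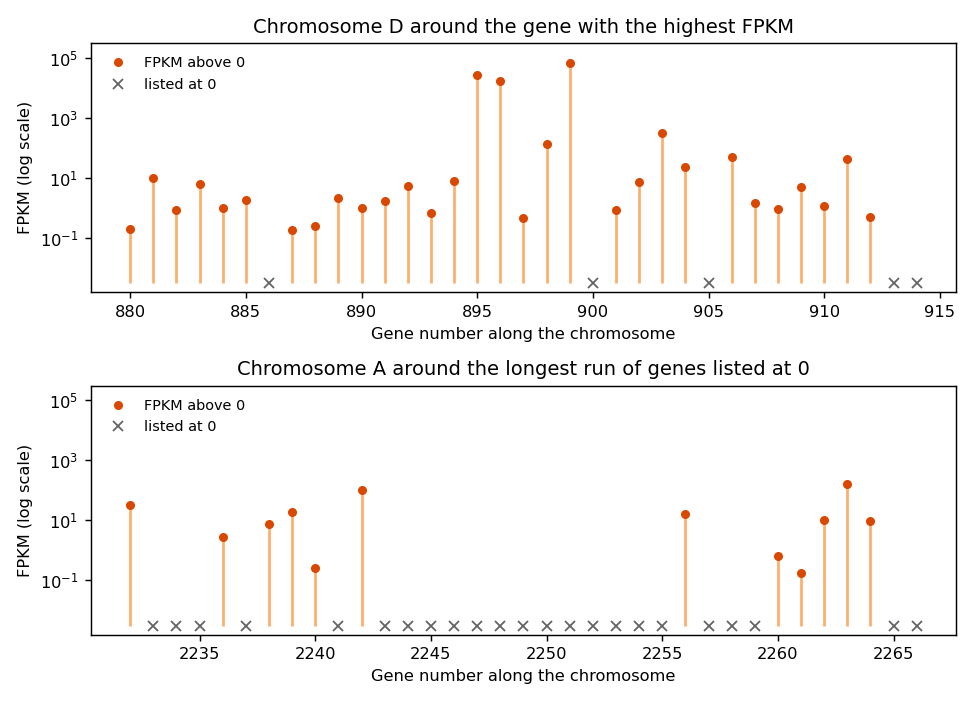
FPKM of single genes (log scale) against gene number for 35 neighbouring genes of chromosome D (upper panel) and of chromosome A (lower panel). Circles with stems are genes above 0 and crosses are genes listed at 0, drawn at the foot of the axis. The genes D00895, D00896 and D00899 stand far above their neighbours, and 13 neighbouring genes of chromosome A, A02243 to A02255, were listed at 0.

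By chromosome, the letters A to J were close to each other and the letter K stood apart. *B. rapa* has 10 chromosomes, which match the letters A to J in number. The files do not say what K stands for, and only the order given by its gene numbers was used. Whether consecutive numbers on K mark neighbours in the genome is not known, which limits what its windows and runs can show. The number of listed genes went from 2863 on D to 5643 on I, with 1916 on K. The share of genes with at least 1 FPKM was 48.0% on C, 47.9% on F, 47.5% on G, 46.8% on H, 46.5% on J, 46.1% on E, 45.9% on I, 45.7% on A, 43.8% on D, 43.2% on B and 34.5% on K. As a scale for these differences, each letter was split into windows of 100 neighbouring genes, and the standard error (SE) of the window shares was taken. It is the SD over windows divided by the square root of their number, as if windows were independent. Windows of 1 library are not replicates and neighbouring windows were weakly alike, so this SE is a rough scale and no error of the experiment. The SD, which describes the variation along a letter, went from 4.64 points on D to 6.92 on A, with 6.05 on K. The SE lay between 0.764 percentage points on C (47 windows) and 1.17 points on H (31 windows) for A to J, and was 1.39 points on K (19 windows). From C down to A, each gap to the next chromosome was smaller than its SE over windows. The gap from A to D was 1.92 points (SE 1.39) and that from D to B 0.519 points (SE 1.32). The distance between the ends of the order of A to J, C and B, was 4.79 points (SE 1.26). From B to K it was 8.75 points (SE 1.71). C and B were picked as the highest and the lowest of A to J, and their SE does not allow for that choice.

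The silent genes gave a similar picture. They made up 26.8% of the genes on F, 27.1% on J, 27.2% on C, 27.3% on G, 28.5% on E, 28.8% on H, 29.0% on I, 29.2% on A, 32.2% on B and 33.0% on D. On K they made up 43.9%, which was 15.1 points above A to J together (SE over windows 1.5). D and F, picked as the highest and the lowest of A to J, differed by 6.21 points (SE 1.43, again without allowance for that choice). The median FPKM was 0.828 on C and 0.815 on F, the highest, 0.524 on D and 0.509 on B, the lowest of A to J, and 0.108 on K. Among genes above 0 the medians lay closer, from 2.30 FPKM on B to 2.84 FPKM on C, with 2.28 FPKM on K. K thus differed from the others mainly in how many of its genes were listed at 0. It still held 63 genes of at least 100 FPKM, 3.29% of its genes, against 3.8% on A to J.

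**Figure D2:**
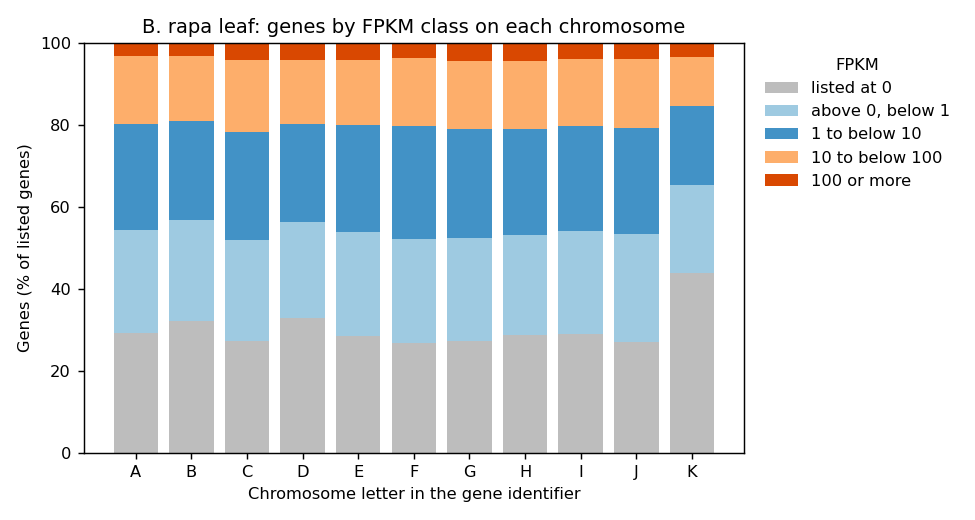
Share of listed genes in each FPKM class (stacked bars, in % of the genes of the letter) for the letters A to K. The bars of A to J are alike, with 26.8% to 33.0% of genes listed at 0, and K has the largest share at 0, 43.9%.

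The share of the summed FPKM followed the number of genes less closely. Chromosome D held 7.07% of the genes and 16.8% of the sum. Without Brara.D00899, Brara.D00895 and Brara.D00896 in the table, D held 8.59% of the remaining sum, so that these genes made up most of its surplus. Brara.D00899 alone was 32.4% of the sum of its chromosome. Chromosome I held 13.9% of the genes, more than any other letter, and 15.8% of the sum. At 1000 FPKM or more it had 33 of its 5643 genes, the highest count, and D had 15 of its 2863. Over all letters 149 of 40492 genes reached this level. Chromosome A held 9.76% of the genes and 6.53% of the sum. By the share of genes in the top 10% of FPKM, the chromosomes were closer, from 8.98% on A to 11.1% on C, with 7.67% on K and 10.5% on D.

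Along the chromosomes, expression was described in windows of 100 genes, whose shares vary more than those of whole chromosomes because they rest on fewer genes. Over the 386 windows of A to J the share of genes with at least 1 FPKM had a median of 46% and an SD of 6.18 points. Its lowest value was 30%, in Brara.J00701 to Brara.J00800, and its highest was 65%, in Brara.A00301 to Brara.A00400 and in Brara.H01801 to Brara.H01900. The window on J had a median of 0.209 FPKM and 40% of its genes listed at 0. The windows on A and H had medians of 2.61 and 1.98 FPKM, with 20% and 14% at 0. The lowest window of all letters, at 23%, was on K. Among all 405 windows the highest share at 0 on A to J was 50%, on D, and the highest on K was 55%. The share in a window and in the next one had a Spearman's rho of 0.206 over 376 pairs of windows of A to J, which share the library and their chromosome, so neighbouring windows were weakly alike.

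Some low or high windows followed each other. On A, 7 windows in a row lay below the median window, from Brara.A02001 to Brara.A02700. Of these 700 genes 36.4% had at least 1 FPKM and 38.3% were listed at 0, with a median of 0.233 FPKM. Near the start of the same chromosome, from Brara.A00101 to Brara.A00700, 53.7% of 600 genes had at least 1 FPKM, 22.7% were at 0 and the median was 1.43 FPKM. Both stretches belong to 1 chromosome, and the windows of the first (32% to 39%) did not overlap with those of the second (47% to 65%), which follows from how they were picked, on either side of the median window. The longest such low stretch of A to J was on B, with 8 windows from Brara.B01701 to Brara.B02500 and 40.8% of genes with at least 1 FPKM. On E it had 7 windows, from Brara.E00601 to Brara.E01300, with 40.6%. On D and I it had 6 windows each, from Brara.D00601 to Brara.D01200 with 41% and from Brara.I01001 to Brara.I01600 with 40.3%. On I the low stretch came directly after a high one of 6 windows, Brara.I00401 to Brara.I01000, with 52.8%. High stretches of 7 windows lay on C, from Brara.C00601 to Brara.C01300 with 51.7%, and on F, from Brara.F02201 to Brara.F02900 with 53.0%. On K, 18 of 19 windows were below the median window of A to J.

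**Figure D3:**
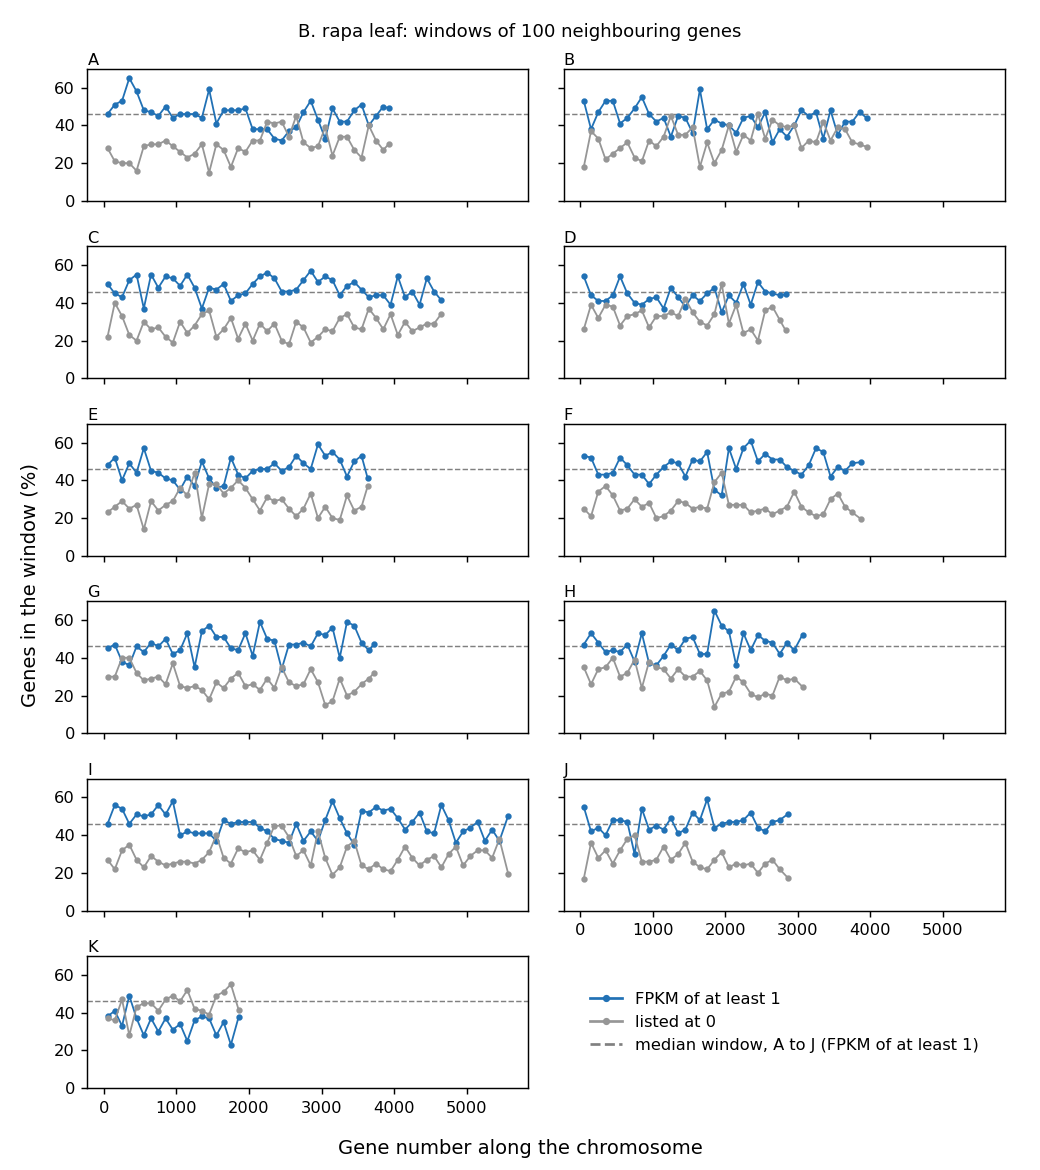
Share of genes with at least 1 FPKM (blue) and share listed at 0 (grey), in % of the genes of the window, for windows of 100 neighbouring genes against gene number, with 1 panel per letter. The dashed line is the median window of A to J, 46%. The low stretch of A from gene 2001 to 2700 and the low level of K can be seen.

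The chromosomes differed among themselves in how their ends compared with their middle. When the genes of each chromosome were split by order into 10 equal parts, the share at 0, averaged over the 10 chromosomes A to J, was 28.8% ± 3.44 (SD over chromosomes) in the first part, 30.4% ± 5.06 in the fifth and 28.0% ± 3.87 in the last. It was lowest in the ninth part, at 26.2% ± 4.66. The means of the parts thus lay within 26.2% to 30.4%, and the SD over chromosomes within a part was between 3.18 and 6.82 points. In the outer 20% at each end the share at 0 was lower than in the middle 20% on 6 of 10 chromosomes. The mean difference was -2.02 points, with an SD of 3.89 points over the 10 chromosomes. It went from -9.43 points on E, with 24.9% at the ends and 34.3% in the middle, to 2.80 points on C, with 27.6% and 24.8%. Positions in base pairs were not used, so the parts are equal in genes and not in length.

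Silent genes lay next to each other more often than their share over all genes. After a gene listed at 0, the next gene was at 0 in 36.1% of cases, against 29.5% over all genes. This share was above the share of the letter on all of A to K, by 4.10 points on G to 8.61 points on E among A to J, and by 3.96 points on K, where it was 47.9% against 43.9%. Without K it was 35.2% against 28.8%. Next to genes above 0 the share at 0 did not vary much with their level. It was 27.6% beside genes below 1 FPKM, 26.2% beside genes of 1 to 10 FPKM, and 26.4% beside genes of 10 to 100 FPKM and of 100 to 1000 FPKM. It was 29.9% over the 298 neighbours of genes at 1000 FPKM or more. The largest step in this series was therefore between genes at 0 and those above.

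The 11962 genes at 0 formed 7649 runs, a run being an unbroken series of neighbours. Of these, 5004 were lone genes, 1657 were pairs and 616 were of 3 genes. Runs of 5 genes or more numbered 163 and held 960 genes, 8.03% of those at 0. Most silent genes thus lay alone or in short series. Runs of 5 or more were most frequent on K, with 14.1 per 1000 genes, followed by D with 6.64 and B with 6.49, the chromosomes with the largest shares at 0. F, with the smallest share, had 1.78 per 1000 genes. Runs on K rest on gene numbers alone, which need not mark neighbours in the genome.

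The longest silent run had 13 genes, from Brara.A02243 to Brara.A02255, inside the low stretch of chromosome A. The gene before it, Brara.A02242, was at 96.6 FPKM and the gene after it, Brara.A02256, at 16.0 FPKM. Of the 10 genes on each side, 9 of 20 were also at 0 and 8 had at least 1 FPKM, so both expressed and silent genes lay around it. Directly after Brara.A02256, Brara.A02257 to Brara.A02259 were again at 0. On K, runs by gene number of 11 genes (Brara.K00937 to Brara.K00947) and of 10 genes (Brara.K01593 to Brara.K01602) followed in length. The gene after the first of them, Brara.K00948, was at 368 FPKM. On F, 9 genes from Brara.F01879 to Brara.F01887 were at 0 between neighbours at 78.9 and 164 FPKM. On B, the run of 8 genes from Brara.B02435 to Brara.B02442 lay between 82.8 and 14.6 FPKM.

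In all, 17 silent runs had 8 genes or more, with 4 each on B and K, 2 each on A and G, and 1 each on D, E, F, H and I. The longest run was of 7 genes on C (Brara.C00142 to Brara.C00148) and of 6 genes on J (Brara.J00435 to Brara.J00440). Of the 17 runs, 6 were bordered by genes of at least 1 FPKM on both sides and 3 on neither side. Among all genes above 0, 64.8% had at least 1 FPKM. This is a share per gene, while the counts are of runs by both bordering genes, so the measures are unlike. Nothing particular to the borders of silent runs is read from these counts. Among the 20 nearest genes around a run, between 0 and 10 were at 0, with a median of 6 genes. The gene on each side of a run is above 0 by definition. Over the other 18 genes the median share at 0 was 33.3% and the highest 55.6%, against 29.5% over all genes. The run with no other silent gene nearby was Brara.G02633 to Brara.G02640, where 12 of the 20 genes around it had at least 1 FPKM. With a looser limit, below 1 FPKM, the longest runs had 18 genes and both lay on K (Brara.K00759 to Brara.K00776 and Brara.K00930 to Brara.K00947). On K, neighbours are known by gene number only. On G, 16 genes from Brara.G00169 to Brara.G00184 were below 1 FPKM and were followed by a gene at 235 FPKM. On A, 15 genes from Brara.A03052 to Brara.A03066 were below 1 FPKM between genes at 1143 and 262 FPKM.

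**Figure D4:**
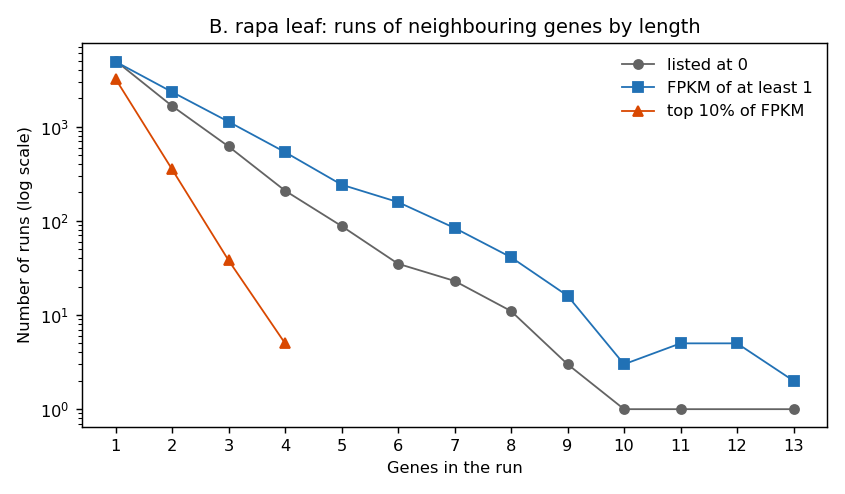
Number of runs (log scale) against the number of neighbouring genes in the run, for genes listed at 0 (circles), with at least 1 FPKM (squares) and in the top 10% of FPKM (triangles). Runs at 0 and of at least 1 FPKM reach 13 genes, and runs of the top 10% end at 4 genes.

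Runs of expressed genes were as long as the silent ones. With at least 1 FPKM in each gene, the longest were of 13 genes, from Brara.B00747 to Brara.B00759 and from Brara.C00439 to Brara.C00451. Runs of 12 genes lay on F (Brara.F00527 to Brara.F00538), J (Brara.J01753 to Brara.J01764), K (Brara.K00329 to Brara.K00340) and, in 2 places, on I (Brara.I01974 to Brara.I01985 and Brara.I03504 to Brara.I03515). More genes are expressed than silent, so runs of the same length are not the same sign of grouping. The run on C had a gene at 0 on each side.

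Genes of the top 10% were followed by each other little more often than their share of all genes. After a gene of the top 10%, the next gene was in the top 10% in 10.9% of cases, against 10% over all genes. The share was above that of the letter on 8 of 11 letters, by at most 4.74 points, on G, and the difference was -3.59 points on K. Of the 4050 genes, 3212 had no neighbour in the top 10%, 704 were in pairs, 114 in runs of 3 and 20 in runs of 4. No run was longer.

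The 5 runs of 4 high genes lay on B, E, G and I. Brara.G03383 to Brara.G03386 were at 3246, 8451, 40.2 and 40.3 FPKM, a run that joined a pair of the highest genes with a pair just above the threshold. Also on G, Brara.G03314 to Brara.G03317 were at 81.0, 179, 43.0 and 166 FPKM. Brara.E00858 to Brara.E00861 were at 341, 189, 107 and 37.3 FPKM. The remaining runs were lower and more even. Brara.B00840 to Brara.B00843 were at 33.3, 56.1, 79.7 and 62.7 FPKM, and Brara.I04660 to Brara.I04663 at 52.0, 31.1, 44.6 and 37.7 FPKM. The genes next to these runs were at most at 11.4 FPKM, and in 4 of the 5 runs 1 of them was listed at 0.

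The longest high run of each remaining letter had 3 genes. The first of them in gene order were Brara.A01669 to Brara.A01671 (299, 72.0 and 42.9 FPKM), Brara.C01063 to Brara.C01065 (216, 134 and 69.8 FPKM) and Brara.D00374 to Brara.D00376 (269, 145 and 50.1 FPKM). On F, H, J and K they were Brara.F00527 to Brara.F00529, Brara.H02061 to Brara.H02063, Brara.J01797 to Brara.J01799 and Brara.K01879 to Brara.K01881. Of the 43 runs of 3 or more high genes, 24 had a gene at 0 directly beside them and 4 had one on each side. Of all 36442 genes outside the top 10%, 32.8% were at 0. This is a share per gene, while a run was counted if either bordering gene was at 0, so the measures are unlike. Nothing particular to high runs is read from these counts. The run on F was also the start of the run of 12 expressed genes given above.

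High and silent runs could lie close together. On A, Brara.A03750 to Brara.A03752 were at 78.4, 124 and 36.5 FPKM. Brara.A03753 and Brara.A03754 were at 17.1 and 1.72 FPKM, and the 8 genes from Brara.A03755 to Brara.A03762 were at 0. On I, Brara.I02310 to Brara.I02312 were at 111, 46.0 and 50.3 FPKM, and Brara.I02318, at 159 FPKM, stood directly before the 8 silent genes Brara.I02319 to Brara.I02326. These loci were picked after their values were seen.

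The likeness of neighbours was weak and largest between direct neighbours. Spearman's rho of FPKM between a gene and the next was 0.0816 over 40481 pairs of neighbours of this library. It was 0.0392 at 2 places, 0.0225 at 3 places, 0.0116 at 5 places and 0.0106 at 100 places. Between neighbours of which neither was at 0 it was 0.0430 over 20880 pairs. The share at 0 given a gene at 0 went from 36.1% at 1 place to 32.1% at 2 places and 30.2% at 5 places, and was 31.0% at 10 places and 30.7% at 100 places. It thus stayed slightly above the 29.5% over all genes and did not fall steadily. The pairs lie within a letter, while the 29.5% pools letters whose shares at 0 differ. No likeness of distant genes is therefore read from so small a surplus. A correlation this weak says little about any given pair. Overlapping neighbours and near-identical copies share reads, and their part in it was not tested.

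The grass *B. distachyon* (accession Bd21), with 1 leaf library made and quantified with the same kit and tools per the labels, gives values to set beside these, without a test. Of its 31679 genes on 5 chromosomes, 28.4% were listed at 0 and 51.8% had at least 1 FPKM. Its top 10% of FPKM (10% of its genes) began at 29.0 FPKM. After a gene at 0 the next was at 0 in 36.2% of cases, and after a gene of the top 10% the next was in the top 10% in 12.9%. Spearman's rho of neighbours was 0.131 over 31674 pairs. The longest silent run had 14 genes and the longest high run 4 genes, in *B. rapa* 13 and 4. Its windows of 100 genes had an SD of 8.27 points in the share of genes with at least 1 FPKM, over 318 windows.

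**Figure D5:**
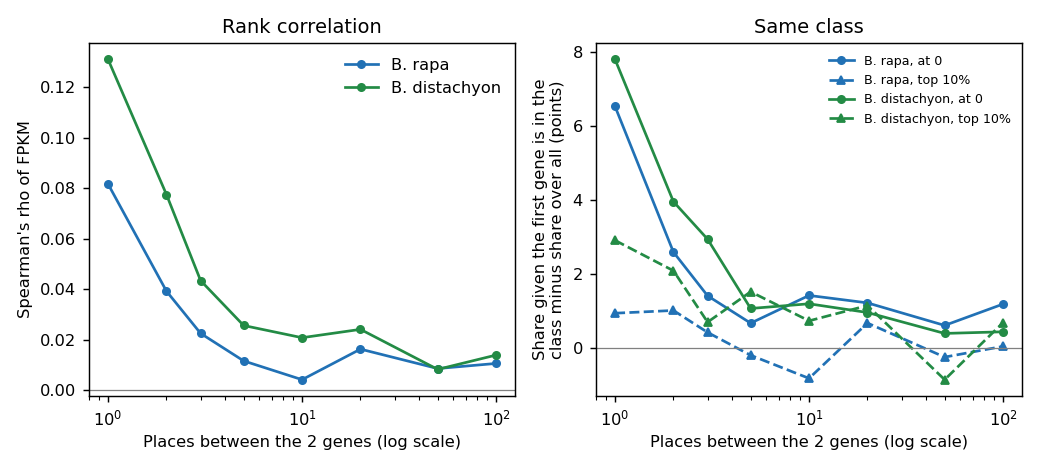
Left, Spearman's rho of FPKM between 2 genes of a chromosome against the number of places between them (log scale), in *B. rapa* (blue) and *B. distachyon* (green), with 1 library each. Right, the share of second genes in the same class as the first, at 0 (circles) or in the top 10% (triangles), minus the share over all genes, in percentage points. In *B. rapa* rho falls from 0.0816 at 1 place to 0.0116 at 5 places.

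At the start of chromosome A, expression and position could be set beside a methylation class. The study classed genes from the leaf methylome, as methylated in the CG context alone within the gene body (gbM), in the CHG context (mCHG), in the CHH context (mCHH) or as unmethylated, and the rest of its list was not used here. The stretch ran up to gene 2015, and 1999 of its genes had a class. It ended before the longest silent run and covered only the first genes of the low stretch of A. Of its classified genes 24.8% were at 0, against 29.2% of all genes on A. Of 72 mCHH genes 54 (75%) were listed at 0 and 7 reached 1 FPKM, the highest being Brara.A01740 at 55.3 FPKM. Of 1920 unmethylated genes 438 (22.8%) were at 0, with a median of 1.07 FPKM. The 113 genes directly beside an mCHH gene and not of that class were at 0 in 19.5% of cases. Their median was 0.760 FPKM, and 46.9% of them had at least 1 FPKM, against 50.7% of unmethylated genes. As mCHH genes were left out of these neighbours and most other genes of the stretch were unmethylated, the neighbours are largely unmethylated genes themselves. No likeness to either class is therefore read from these values. The stretch held 6 silent runs of 5 genes or more. Of their 34 genes, 5 (14.7%) were mCHH genes and 29 were unmethylated. Among all 495 classified genes at 0, mCHH genes made up 10.9%. The gbM and mCHG classes held only 3 and 4 genes there.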

How the data were processed

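RNA of *B. rapa* leaves was sequenced by the authors from a stranded library. The submitters' processing notes name Trimmomatic 0.32, TopHat2 2.0.13 and Cufflinks 2.2.1, and in the study's methods the aligner and the quantifier were given a reference annotation. The authors deposited 1 FPKM value per gene, without fragment counts, gene lengths or error. The study lists the reads of this library, a number not used here, and no counting error per gene was computed. Whether the strand was used for quantification is not given in the sources used here, so genes that overlap a neighbour, like near-identical copies, are uncertain. The *B. distachyon* FPKM values were deposited in the same form, and its genes outside chromosomes were left out.

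Genes were sorted by the letter and number of their identifiers, in which no number was skipped. Windows held 100 genes, and a last window of under 50 genes was joined to the one before. Named genes are the highest overall and per letter, and the ends of the longest runs and of extreme windows. The other loci named, including the window stretches, high pairs and further runs, were chosen after their values were seen. Members and measures were chosen with earlier results of these data known. Python 3.11.15, NumPy 2.4.6 and pandas 2.3.3 were used, and the run and window counts were checked on simulated data. No per-sample column was left unmapped, no test was run, the small RNA tables were not used, and cucumber genes entered only the total number of genes. Alternatives changed the limits, the window size, the pseudocount and the neighbours used.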

Additional observations from a re-analysis of the deposited data

How the results depend on the processing

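No paired analysis was possible because *B. rapa* has 1 RNA-seq library. For K against A to J, and for silent, high or all neighbours, no direction reversed under the alternatives run. For the ends of the chromosomes, the count with a lower share at the ends was 6 of 10 in every setting. With the share below 1 FPKM these were not all the same chromosomes, as B and J changed sides. The order of A to J, the highest genes, the summed FPKM, *B. distachyon* and the methylation classes had no alternative. The letter K against A to J differed by 15.1 percentage points in the share at 0, and by 11.7 points in the share below 1 FPKM. Its share of genes with at least 1 FPKM is the complement of the share below 1 FPKM, so its difference of -11.7 points is the same result. At a limit of 5 FPKM the difference for K was -7.15 points. Its median differed by -0.583 FPKM, by -0.336 FPKM without genes at 0, and its mean by -0.41 on the log2(FPKM + 1) scale and -0.83 on the log2(FPKM + 0.1) scale. The SD over windows, 6.18 points, was 8.36 points with 50 genes per window and 4.90 points with 200, which average over fewer or more genes, and 0.26 for the window mean of log2(FPKM + 1). The surplus of silent genes after a silent gene was 6.53 points, 5.42 points with the limit below 0.1 FPKM, and 6.35 points without K, a setting chosen after seeing the data. The surplus of high genes after a high gene was 0.942 points for the top 10%, 1.42 points for the top 5% and 2.48 points for the top 20%. The cause of this spread was not tested. Spearman's rho of neighbours, 0.0816, was 0.0430 without genes at 0, and Pearson's r of log2(FPKM + 1) was 0.0512. FPKM without counts per gene gives no precision for low values or for the limit at 0.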
